A study of Mus musculus with 6 samples.

Results

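The complement and coagulation factors of the liver were compared between DUhTP and DUC mice as 50 probe sets of 38 genes. A list of 42 genes was followed, and a probe set was taken where the array annotation gave a listed gene as its only symbol. Of the 22 complement genes listed, 19 were measured with 27 probe sets. Of the 20 coagulation genes, 19 were measured with 23 probe sets. The only C4b probe set carries the symbols of both C4a and C4b and was left out, and C3, Cfd and Cpb2 are not analysed here. DUhTP mice, also called marathon mice, come from long-term selection for high treadmill performance, whereas DUC is the unselected control line. Both lines are non-inbred and go back to a common cross, in which the inbred lines XVII/Bln, C57BL/Bln, AB/Bln and CBA/Bln and the outbred stocks CF1, CFW, Han:NMRI and NMRI orig. were joined. The mice were male, 70 days old and untrained, and the labels name no treatment. Each line was measured on 3 arrays. The methods describe pools while the sample labels describe a mouse, so the p-values measure the spread between these arrays only.

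The whole array gave 22626 probe sets without the controls, of which 20380 have 1 gene symbol and cover 12393 genes. Each value is a PLIER intensity, a model-based summary of the probes of a probe set on a linear scale in arbitrary units, so that levels of different probe sets cannot be set against each other. The array medians lay between 53.1 and 57.0, and log2 intensities correlated at 0.959 or more within the DUhTP line, 0.974 or more within DUC and 0.950 or more between the lines. Hepatocyte transcripts were present throughout, with Alb, the gene of serum albumin, at 13505 or more on every array. Log2 fold changes are DUhTP minus DUC, the FC is the fold on the linear scale with a minus sign where DUhTP was lower, and a probe set passed the test at an adjusted p under 0.05 in limma over all 22626 probe sets.

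Complement is a cascade of plasma proteins that marks and perforates foreign surfaces. The classical pathway starts with C1q on bound antibody, the lectin pathway with mannose-binding lectins on sugars, and the alternative pathway runs on C3 itself. All of them form convertases that split C3 and then C5, the product of Hc, after which C6 to C9 assemble a pore in the membrane. Coagulation is a second cascade of mostly liver-made proteases. Tissue factor with factor VII, or the intrinsic factors, activate factor X, which with factor V turns prothrombin into thrombin, and thrombin turns fibrinogen into fibrin. Hepatocytes make most of these proteins, while C1q comes mainly from macrophages, properdin from leukocytes and factor VIII from endothelium.

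The complement genes lay mostly above the DUC level in DUhTP liver, apart from Hc, which was clearly below it, whereas the coagulation genes showed no common direction. Taking the brightest probe set of each gene, 18 of 19 complement genes had a positive log2 fold change, with a median of 0.22. Of the 19 coagulation genes 9 were positive, with a median of -0.01. Over all 12393 genes 6218 were positive, with a median of 0.00. In 13 of the 19 complement genes every DUhTP array was above every DUC array, and in 1 every DUhTP array was below. The same held for 4 coagulation genes above and 3 below, and for 15.6% of all genes above and 16% below.

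Few of these differences passed the test. The 3 member probe sets past the threshold were that of Hc, which fell, and those of F11 and of Masp1 (1425985_s_at), which rose. This is 3 of 50 beside 2.41% of all probe sets in either direction. Higher in DUhTP were 2 of 50, beside 1.36% of all, and lower was 1 of 50, beside 1.05%. With 16 added to each intensity before taking logs, which damps the scatter of dim probe sets, 12 of 50 member probe sets passed beside 8.62% of all. Of these, 10 were higher, beside 3.92%, and 2 were lower, beside 4.7%. Complement held 9 of the 10 higher probe sets, of which 3 read Masp1 and 2 read C1qb, and the others C1qa, Mbl1, C8g and C4bp, while coagulation held 1. By the brightest probe set per gene, 4 of 19 complement genes were higher with 16 added, beside 4.41% of all genes. The count of 10 complement probe sets that passed in either direction with 16 added was 6 without DUhTP 1, 4 without DUC 1, 2 without DUC 2 and 3 without DUC 3. Of all probe sets 7.03%, 4.25%, 3.41% and 3.42% passed in these cases. The added constant changed the log2 fold changes of the members by a median of 0.00286 and by at most 0.504, the latter for the dim F3. When each of the 6 arrays was left out in turn, 0 members passed in all cases without the constant, while Hc, F11 and Masp1 (1425985_s_at) passed in all cases with it. Of all probe sets 0.00442% to 0.539% passed in these cases without the constant, and 3.41% to 7.03% with it. In whole liver, fewer cells of a type and less RNA per cell cannot be told apart.

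**Figure D1:**
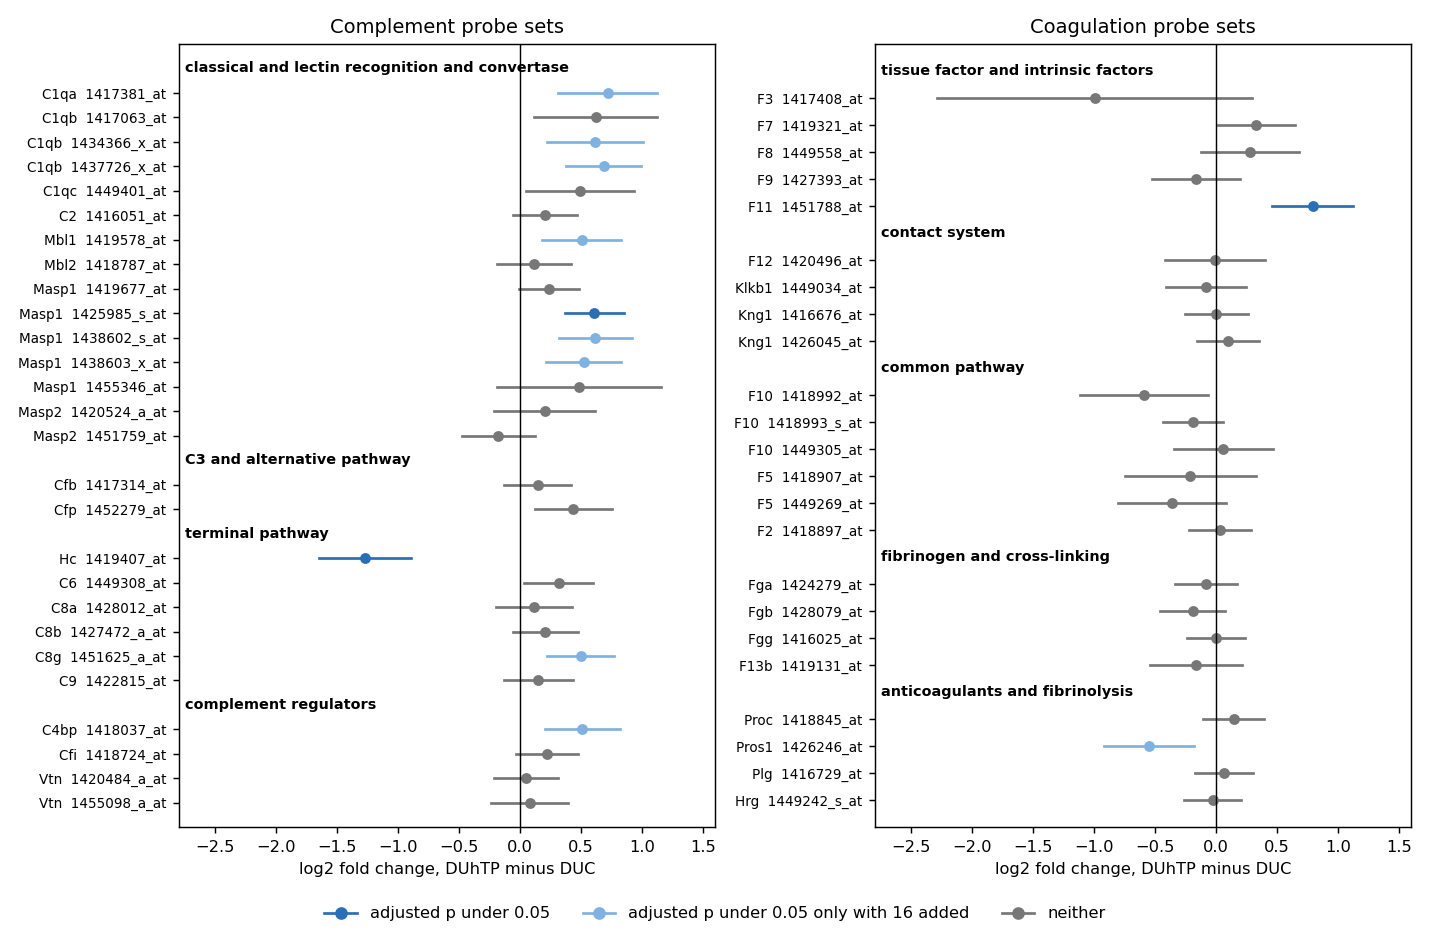
Log2 fold change, DUhTP minus DUC, of the 27 complement probe sets (left) and the 23 coagulation probe sets (right), grouped by role. Points are limma estimates, lines their 95% confidence intervals, and the colour shows whether a probe set passed an adjusted p under 0.05, passed only with 16 added, or did neither. All but 2 of the complement points, Hc and a Masp2 probe set, lie right of 0, while the coagulation points lie on both sides.

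The chains of C1q were above the DUC level throughout. C1q binds antibody on a surface and sets off the classical pathway, and its A, B and C chains are the products of C1qa, C1qb and C1qc. C1qa measured 756, 906 and 701 in DUhTP mice and 562, 428 and 446 in DUC controls. The lines did not overlap, with an FC of 1.65, a log2 fold change of 0.72 (SE 0.17) and an adjusted p of 0.0869, or 0.0166 with 16 added. C1qb was read by 3 probe sets with log2 fold changes of 0.62, 0.61 and 0.69. The last of them was the tightest, at 283, 281 and 251 in DUhTP and 175, 150.4 and 181 in DUC, with an adjusted p of 0.0552 (0.00968 with 16 added). C1qc measured 386, 481 and 341 in DUhTP and 332, 268 and 255 in DUC, with a log2 fold change of 0.49 and an adjusted p of 0.198 (0.0873 with 16 added). In all 5 C1q probe sets, 3 of them of C1qb, the lowest DUhTP array was above the highest DUC array, beside 13.6% of all probe sets. None of the 5 passed without the constant. With 16 added and DUC 2 left out, the adjusted p of C1qa was 0.081 and that of C1qb (1437726_x_at) was 0.0552, and without DUC 3 that of C1qa was 0.0797. The C1qb probe set 1434366_x_at passed with 16 added only on all 6 arrays or without DUhTP 3.

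Macrophages make C1q, and of their markers only Clec4f passed without the constant. Of 12 Kupffer cell and macrophage markers, 9 had a positive log2 fold change, with a median of 0.42. In 7 every DUhTP array was above every DUC array and in 2 below, beside 15.6% and 16% of all genes. Without the constant 1 was called higher, beside 1.64% of all genes, and 0 lower, beside 1.06%. Clec4f, a Kupffer cell lectin, measured 588, 724 and 624 in DUhTP and 346, 259 and 285 in DUC. Its lines were far apart, with an FC of 2.18 and an adjusted p of 0.032, although it did not pass whichever of the 6 arrays was left out (0.0708 to 0.137). With 16 added 5 of 14 marker probe sets were higher, those of Clec4f, Adgre1, Aif1, Cd68 and Csf1r, beside 3.92% of all probe sets. The 2 that were lower, beside 4.7%, were those of the scavenger receptors Marco (log2 fold change -0.60) and Cd163 (-0.93). Of these 7 calls only that of Clec4f held whichever array was left out. The summed level of the 12 markers was 4237 to 5181 in DUhTP and 3115 to 4196 in DUC, so the lines barely separated. Here and below such a sum adds the intensities of the same probe sets on each array and is weighted to the bright ones. No marker of this list was at 0, but neither was any probe set, since the lowest value per array was 0.101 to 0.166. Among the DUhTP arrays, DUhTP 2 had the highest C1qa, C1qb and C1qc levels by their brightest probe sets and the highest marker sum, and among the DUC arrays DUC 1 had both. What part these cells have in the C1q difference was not tested. Levels of liver endothelial markers, summed over 11 genes, were 3536 to 3781 in DUhTP and 3200 to 3373 in DUC. Of these genes 7 of 11 were positive and 0 called, beside 2.7% of all genes. Of the stellate cell markers Col3a1, a collagen gene, was called higher on 1 of its 2 probe sets. This probe set measured 226, 255 and 306 against 144, 126 and 141 (log2 fold change 0.93, adjusted p 0.0434). With each array left out the adjusted p was 0.0813 to 0.152, or 0.00486 to 0.0269 with 16 added. Of 4 platelet markers Ppbp, a platelet chemokine gene, was called higher at 30.7, 27.6 and 30.7 against 15.7, 10.2 and 12.7, all below the array medians. The log2 fold change was 1.23 (adjusted p 0.0338), or 0.67 with 16 added. Leaving out each array gave adjusted p values of 0.0654 to 0.138, or 0.0117 to 0.0443 with 16 added. The summed levels of both lists overlapped between the lines, at 2500.3 to 3027 in DUhTP and 2415 to 2777 in DUC for 9 stellate cell genes and 217 to 257 against 193 to 225 for the platelet genes. Their part in the coagulation values was not tested.

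**Figure D2:**
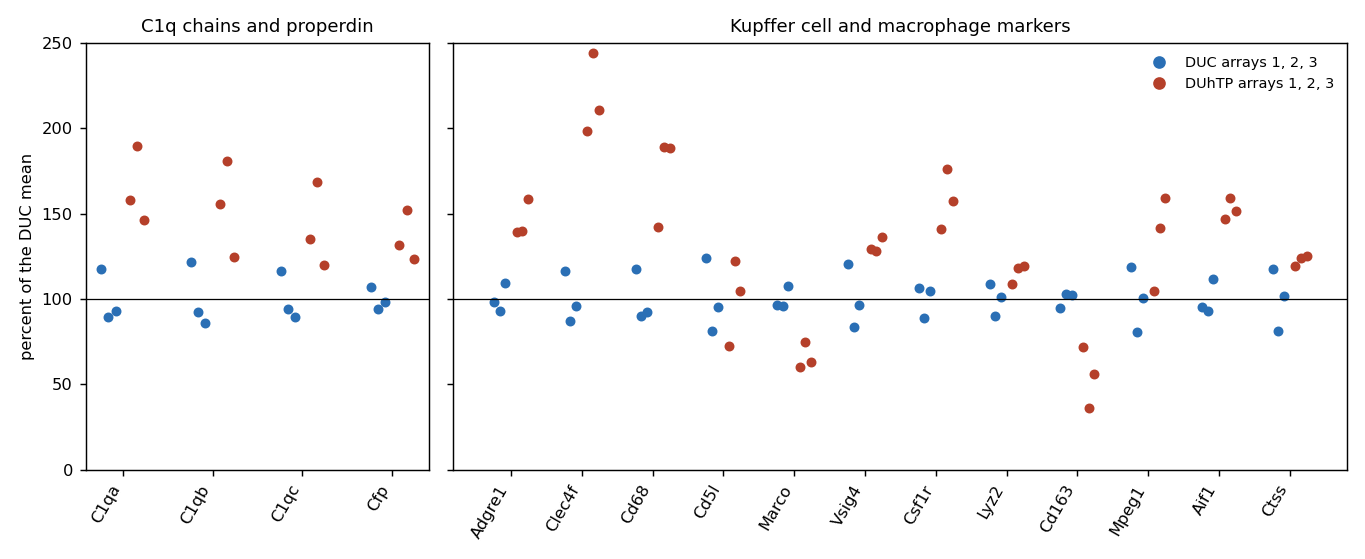
Intensity of each array as a percent of the DUC mean, for the C1q chains and properdin (left) and the 12 Kupffer cell and macrophage markers (right), each by its brightest probe set. Each point is 1 array. The DUhTP points of the C1q genes and of Clec4f, at 198 to 244 percent, lie above all DUC points. Those of Adgre1, Aif1, Cd68, Csf1r, Ctss and Vsig4 also lie above, whereas those of Marco and Cd163 lie below.

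In the lectin pathway the protease gene Masp1 rose on 1 of its 5 probe sets. Masp1 encodes proteases that travel with mannose-binding lectin and start its cascade. Probe set 1425985_s_at measured 273, 284 and 286 in DUhTP and 189, 185 and 179 in DUC, 2 tight and clearly separate groups. The log2 fold change was 0.61 (SE 0.0976; FC 1.53) with an adjusted p of 0.0433, and leaving out each array in turn gave 0.0941 to 0.16. Of the other 4 probe sets, 1438602_s_at (log2 fold change 0.62) and 1438603_x_at (0.52) did not overlap between the lines and passed with 16 added only, at 0.0164 and 0.0333. The former call was lost when any 1 DUC array was left out (up to 0.0714) and the latter whichever of the 6 arrays was left out (up to 0.138). The brightest Masp1 probe set, 1419677_at, gave a smaller difference, from 1228, 1232 and 1276 in DUC to 1416, 1450.5 and 1542 in DUhTP. Its lines did not overlap either, yet its log2 fold change of 0.24 had an adjusted p of 0.249. The dimmest, 1455346_at, overlapped at 17.5, 20.8 and 11 in DUhTP and 11.1, 13.7 and 9.62 in DUC, all below the array medians, with an adjusted p of 0.368 (0.35 with 16 added). Probe sets ending in _s_at or _x_at can match more than 1 transcript, and which Masp1 transcript each reads is not given in the sources used here.

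The mannose-binding lectins themselves differed in size of effect. Mbl1 measured 2441, 2694 and 3001 in DUhTP and 2063, 1920.3 and 1737 in DUC, without overlap, a log2 fold change of 0.51 (SE 0.13) with an adjusted p of 0.113 (0.0347 with 16 added). With the constant it no longer passed when any 1 array other than DUhTP 1 was left out, at up to 0.135. Mbl2, at 3947, 4097 and 4498 against 4219, 3885 and 3489, overlapped and had a log2 fold change of 0.12. The difference between the 2 genes was not tested. Masp2, the protease that cleaves C4 and C2, gave opposite signs on its probe sets, 0.20 on 1420524_a_at and -0.18 on 1451759_at, with adjusted p values of 0.544 and 0.457. C2, which supplies the protease of the classical convertase, was at 579.8, 633 and 592 against 552, 515 and 499, without overlap, and its log2 fold change was 0.21 with an adjusted p of 0.331.

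The alternative pathway was represented by Cfb and Cfp. Cfb, the gene of the convertase protease factor B, measured 3456, 3309.7 and 3404 in DUhTP and 3153, 3269 and 2782 in DUC. The lines only just missed each other, and the log2 fold change of 0.15 had an adjusted p of 0.503. Cfp, the gene of properdin, which steadies the alternative convertase, measured 158, 182 and 148 in DUhTP and 128, 113 and 118 in DUC. It had a larger log2 fold change of 0.44 with an adjusted p of 0.138 (0.0693 with 16 added), and neither gene passed.

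In the terminal pathway Hc fell while the other genes lay higher. Hc, the gene of C5, measured 614, 669 and 619.6 in DUhTP mice and 1849, 1324 and 1468 in DUC controls. The highest DUhTP array was at 43.2% of the DUC mean and the lowest DUC array at 85.6%, and the DUhTP arrays lay close together. The mean was 634 ± 30.4 in DUhTP and 1547 ± 271 in DUC (SD, n = 3), an FC of -2.42 and a log2 fold change of -1.27 (SE 0.15, 95% interval -1.65 to -0.90) with an adjusted p of 0.0241. It was the only member with an FC beyond 2 in either direction. Leaving out each array in turn gave log2 fold changes of -1.38 to -1.14 with adjusted p values of 0.0648 to 0.111, and with 16 added of 0.00144 to 0.00658.

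C8g encodes the gamma chain of C8, which inserts the growing complex into the membrane. It measured 6160.1, 6105 and 5602 in DUhTP and 4346, 4419 and 3881 in DUC, without overlap. Its log2 fold change of 0.50 (SE 0.11; FC 1.41) had an adjusted p of 0.0836, or 0.0239 with 16 added, a call that held without DUhTP 2 or DUhTP 3 but not without DUhTP 1 or any 1 of the DUC arrays (up to 0.101). The other C8 chains, C8a and C8b, were at log2 fold changes of 0.11 and 0.21, the former with overlap between the lines. C6, the first protein to join C5b, measured 1341, 1292 and 1126 in DUhTP and 1003, 978 and 1028 in DUC, a log2 fold change of 0.32 with an adjusted p of 0.196. C9, which forms the wall of the pore, overlapped with a log2 fold change of 0.15. Thus 5 of 6 terminal genes had positive values, none of which passed without the constant, and Hc alone was negative.

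The promoter of Hc is shown because this gene moved against the rest of its branch, with the letters of a motif of the hepatocyte factor HNF1 in capitals. It spans the 250 bases before the transcription start in the RefSeq annotation of GRCm38.p6, chr2:35061413-35061662 on the minus strand, written 5′ to 3′.
Hc: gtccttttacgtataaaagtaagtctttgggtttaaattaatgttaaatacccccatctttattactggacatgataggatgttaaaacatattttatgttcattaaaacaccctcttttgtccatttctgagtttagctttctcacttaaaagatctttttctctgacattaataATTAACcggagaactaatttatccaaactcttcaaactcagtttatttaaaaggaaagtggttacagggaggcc
Short motifs of liver factors were searched on both strands in these windows, namely GTTAAT for HNF1, CAAAGTCCA for HNF4, TTNNGNAAT for C/EBP factors and TGTTTAC for FOXA factors. The Hc window held the HNF1 letters, read as ATTAAC on this strand, with their first base 74 bases before the start. Of the 38 member genes 30 had an entry in the promoter table, and 14 of the 30 held at least 1 motif, beside 18.3% of all 32851 promoters. The HNF1 letters stood in 9 of 30, beside 6.43% of all, those for C/EBP in 5 beside 10.2%, those for FOXA in 2 beside 3.17%, and those for HNF4 in 0 beside 0.384%. The 17 matches did not overlap each other. A match of letters is a description of the window and was not related to binding here.

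Among the complement regulators, C4bp had the largest difference. It encodes the C4b-binding protein, which takes apart the classical convertase, and measured 4157, 3682 and 4447 in DUhTP and 3117, 2808 and 2687 in DUC. All DUhTP arrays were higher, with a log2 fold change of 0.51 (SE 0.13) and an adjusted p of 0.101, or 0.0301 with 16 added. With the constant this was lost without any 1 array other than DUhTP 2, at up to 0.117. Cfi, the protease that cuts C3b and C4b, measured 6274, 6027 and 6138 against 5606, 5136 and 5094, also without overlap, and had a log2 fold change of 0.22 with an adjusted p of 0.287. Vtn, the gene of vitronectin, which keeps the terminal complex out of membranes, overlapped on both probe sets, with log2 fold changes of 0.05 and 0.08.

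In coagulation F11 was the gene that rose. Factor XI belongs to the intrinsic pathway and activates factor IX. F11 measured 779.9, 728 and 809 in DUhTP mice and 501, 455 and 388 in DUC controls, and the lowest DUhTP array was well above the highest DUC array. The mean was 773 ± 40.9 against 448 ± 57 (SD, n = 3), an FC of 1.73 and a log2 fold change of 0.79 (SE 0.13, 95% interval 0.46 to 1.12) with an adjusted p of 0.0486. This was close to the threshold. It was 0.0946 to 0.159 when each array was left out in turn, 0.0558 when probe sets that can match several transcripts were left out of the test, and 0.00525 with 16 added.

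Klkb1, the gene of plasma prekallikrein, is the next protein-coding gene to F11 on chromosome 8 in the GRCm38.p6 annotation, and the 2 proteins share their domain plan. It measured 1143, 915 and 1098 in DUhTP and 1199, 1079 and 1047 in DUC. The lines overlapped, with a log2 fold change of -0.08 (95% interval -0.41 to 0.25, adjusted p 0.783). The promoters of both genes are shown because these neighbours differed in this way, on the minus strand at chr8:45262032-45262281 and chr8:45294836-45295085, with motif letters in capitals.
F11: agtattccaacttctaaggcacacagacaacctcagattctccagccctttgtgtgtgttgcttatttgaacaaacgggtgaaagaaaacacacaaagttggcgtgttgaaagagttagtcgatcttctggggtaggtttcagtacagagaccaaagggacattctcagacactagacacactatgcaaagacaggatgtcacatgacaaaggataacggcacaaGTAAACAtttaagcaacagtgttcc
Klkb1: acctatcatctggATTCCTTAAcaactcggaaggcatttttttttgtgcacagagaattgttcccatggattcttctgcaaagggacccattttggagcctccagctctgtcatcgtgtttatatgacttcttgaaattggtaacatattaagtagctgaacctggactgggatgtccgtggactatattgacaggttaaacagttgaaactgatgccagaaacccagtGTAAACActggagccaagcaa
Both windows held the FOXA letters, read as GTAAACA on this strand, 25 bases before the start in F11 and 21 in Klkb1. Of the 30 member genes with an entry these 2 held that motif. The Klkb1 window also held the C/EBP letters as ATTCCTTAA, 237 bases before the start.

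**Figure D3:**
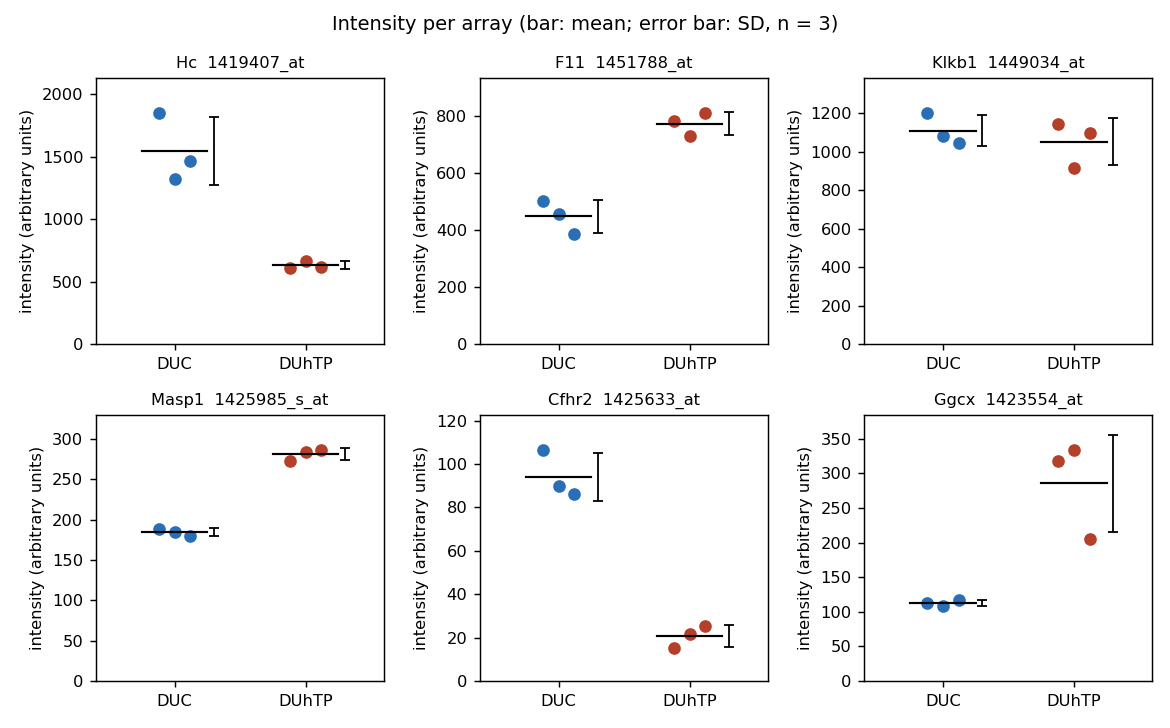
Intensity of each array, in arbitrary units on a linear axis from 0, for Hc, F11 and its neighbour Klkb1, a Masp1 probe set, Cfhr2 and Ggcx. Points are arrays, the bar is the mean and the error bar the SD of 3 arrays. DUhTP lies below DUC for Hc and Cfhr2 and above DUC for F11, Masp1 and Ggcx, while Klkb1 overlaps.

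The other factors upstream of factor X did not pass. F7, the partner of tissue factor, measured 1022, 1123 and 968 in DUhTP and 823, 907 and 745 in DUC, without overlap, a log2 fold change of 0.33 and an adjusted p of 0.213. F3, the gene of tissue factor, was read at 18.9, 5.98 and 20.8 against 36.7, 24.9 and 20.4, all below the array medians. Its FC was -1.99, with a 95% interval of -2.29 to 0.30 for the log2 fold change, which was -0.49 with 16 added, and the lines overlapped. F8 (log2 fold change 0.28) and F9 (-0.17), whose proteins together activate factor X, had adjusted p values of 0.384 and 0.569.

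The contact system, which starts clotting on charged surfaces and releases bradykinin, gave no call. F12, the gene of factor XII, measured 3152, 2994 and 2193 in DUhTP and 2853, 2824 and 2627 in DUC, and DUhTP 3 was the lowest of the 6 arrays. The log2 fold change was -0.01, with a 95% interval of -0.42 to 0.40. Kng1, the gene of kininogen, gave 0.00 and 0.10 on its 2 probe sets, with the brighter one overlapping. Of the 3 contact system genes 0 separated the lines by their brightest probe set, beside 15.6% of all genes above and 16% below.

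The common pathway gave no call either. F10 was read by 3 probe sets that did not run the same way. The brightest, 1449305_at, overlapped at 3878, 4199 and 2988 against 3704, 3623 and 3187 (log2 fold change 0.06), while 1418992_at measured 165, 119 and 117 against 167, 190.04 and 248 (-0.59, adjusted p 0.196) and 1418993_s_at gave -0.19. The latter 2 lay below DUC without overlap. F5, the cofactor of factor X, measured 1885, 1278 and 1842 in DUhTP and 2234, 2002 and 2092 in DUC on its brighter probe set, a log2 fold change of -0.36 with an adjusted p of 0.323, and DUhTP 2 was the lowest array. F2, the gene of prothrombin, was at 0.03 with a 95% interval of -0.22 to 0.29.

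The fibrinogen chains lie side by side on chromosome 3 and gave no call. Fga, Fgb and Fgg had log2 fold changes of -0.08, -0.19 and 0.00, with 95% intervals of -0.34 to 0.17, -0.46 to 0.08 and -0.24 to 0.24. Fgb measured 10624, 11450.2 and 10826 in DUhTP and 13324, 12755 and 11557 in DUC, so that every DUhTP array was lower, by an amount that did not pass (adjusted p 0.376). These probe sets are near the top of the intensity range, whose highest value was 16787 to 17301 per array, and whether they were still in proportion to the RNA was not tested. F13b, the carrier subunit of the factor that links fibrin strands, overlapped at a log2 fold change of -0.17.

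Of the anticoagulant and fibrinolytic genes Pros1 had the largest difference. Protein S is the cofactor of activated protein C, and its gene measured 178, 178 and 223 in DUhTP and 319, 268 and 259.6 in DUC. The DUhTP arrays were all lower, with a log2 fold change of -0.55 (SE 0.15) and an adjusted p of 0.124, or 0.0413 with 16 added. With the constant it passed without DUhTP 3 but not without any 1 of the others, at up to 0.145. Proc, the gene of protein C, was at 3507, 3250.3 and 3281 against 3006, 3125 and 2947, above DUC by 0.14 on the log2 scale with an adjusted p of 0.464. Plg, the gene of plasminogen, also lay above DUC without overlap, at 0.07 with an adjusted p of 0.743, and Hrg, a plasma protein that binds heparin and plasminogen, overlapped at -0.02.

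In the vitamin K cycle Ggcx rose. Ggcx encodes the carboxylase that the vitamin K-dependent factors II, VII, IX and X and proteins C, S and Z need to bind calcium. It measured 318, 334 and 205 in DUhTP and 112, 108 and 117 in DUC, with DUhTP 3 nearest to the controls. The log2 fold change was 1.31 (SE 0.21; FC 2.49) with an adjusted p of 0.0428. It passed without DUhTP 3 (0.0428) but without any 1 of the other arrays gave 0.0946 to 0.151, and with 16 added it passed in each case. Vkorc1, which recycles the vitamin, was at 3992, 3935 and 3865 against 3672, 3782 and 3579, a log2 fold change of 0.10, and Nqo1, a quinone reductase, overlapped at 0.04. The genes of its substrates lay on both sides of DUC, since F7 and Proc lay above DUC and Pros1 below it, while F2, F9 and F10 overlapped by their brightest probe sets, as did Proz (0.01).

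**Figure D4:**
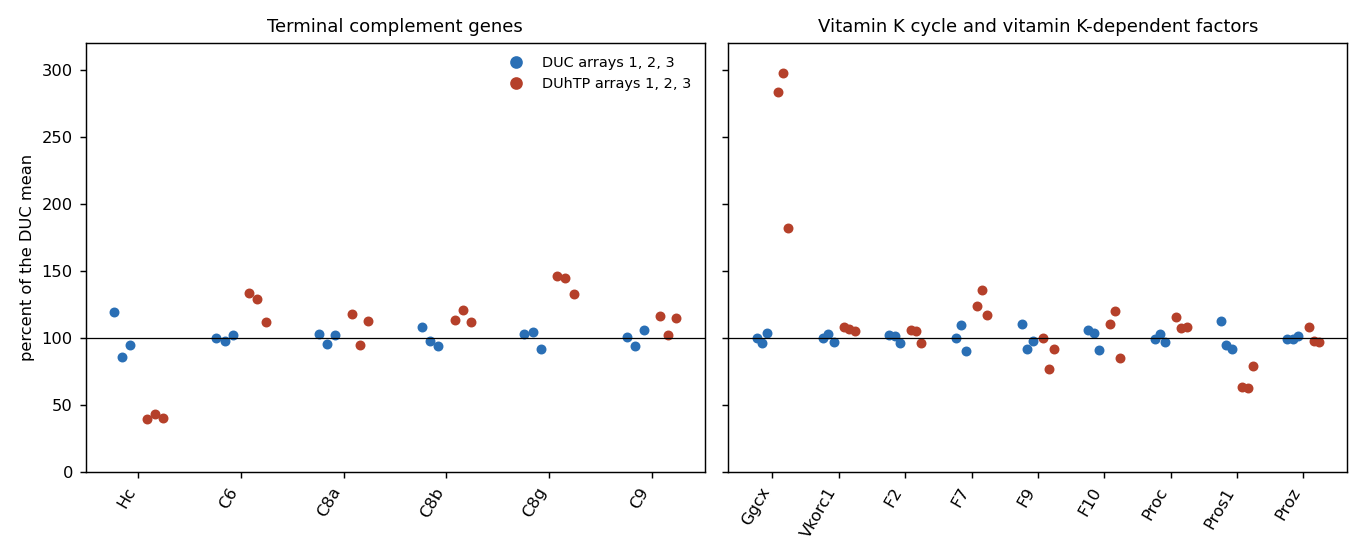
Intensity of each array as a percent of the DUC mean, for the terminal complement genes (left) and for Ggcx, Vkorc1 and the vitamin K-dependent factors (right), each by its brightest probe set. Each point is 1 array. Hc lies at 39.7 to 43.2 percent in DUhTP beside the other terminal genes near or above 100 percent, and Ggcx at 182 to 297 percent beside factors that lie on both sides.

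Further genes of the pathways were taken from lists of other complement genes, other coagulation and fibrinolysis genes, the vitamin K cycle and liver transcription factors, 97 probe sets of 68 genes in all. Of these 97 probe sets 1 was called higher, that of Ggcx, beside 1.36% of all probe sets. Called lower was 1, a probe set of Cfhr2, beside 1.05%. With 16 added 3 of 97 were higher, beside 3.92% of all probe sets, and 10 were lower, beside 4.7%. The count over the 97 probe sets fell from 13 to 7 without DUC 1, 4 without DUC 2 and 3 without DUC 3. Of all probe sets 4.25%, 3.41% and 3.42% passed in these cases. Cfhr2 encodes a protein related to complement factor H. Probe set 1425633_at measured 15.1, 21.7 and 25.3 in DUhTP and 107, 89.8 and 86 in DUC, and the DUhTP values lay below the array medians. The log2 fold change of -2.21 (SE 0.22) had an adjusted p of 0.0166, and it was -1.59 with 16 added. It passed without DUhTP 1 (0.0374) or DUhTP 3 (0.0433), while leaving out DUhTP 2 or any 1 of the DUC arrays gave 0.0553 to 0.0885. The brighter probe set, 1425823_at, measured 206, 110.2 and 146 against 269, 252 and 259, also without overlap, with a log2 fold change of -0.80 and an adjusted p of 0.139.

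Of the 22 other complement genes measured, 15 were positive, with a median log2 fold change of 0.15. Itgb2, the common chain of the complement receptors CR3 and CR4 on leukocytes, measured 226, 228 and 182 in DUhTP and 129, 149 and 144 in DUC, a log2 fold change of 0.59 with an adjusted p of 0.0923 (0.0274 with 16 added). Like C1q it is a gene of macrophages and other leukocytes, and with 16 added it passed without DUhTP 3 but not when any 1 of the other arrays was left out, at up to 0.104. Serping1, the inhibitor of C1 and the contact proteases, was at 0.17 (adjusted p 0.397), and Clu, which like vitronectin holds back the terminal complex, at 0.14 on its brightest probe set (0.47). Serping1 and Clu separated the lines upward without passing. Of the 22 genes 7 separated upward and 1 downward, beside 15.6% and 16% of all genes. The proteases C1ra and C1s1, which C1q activates, overlapped at 0.13 and 0.13. C1qbp, a mitochondrial protein that can bind C1q, was at -0.04, and Cpn2, a subunit of the carboxypeptidase that blunts the anaphylatoxins, at 0.25 (adjusted p 0.24).

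Of the 28 other coagulation genes 12 were positive, with a median of -0.05, and 0 of their 38 probe sets passed, beside 2.41% of all. With 16 added 1 was higher, beside 3.92% of all probe sets, and 2 were lower, beside 4.7%. Among the brightest, Serpinc1, the gene of antithrombin, was at a log2 fold change of 0.12, Apoh at -0.01, Pzp at -0.07 and Serpinf2, the gene of the plasmin inhibitor, at 0.19. The inhibitors Serpina10 and Serpind1 lay higher. Serpina10, the inhibitor of factor X that works with protein Z, measured 3079, 3587 and 3369 in DUhTP and 2535, 2494 and 2247 in DUC (0.46, adjusted p 0.106, 0.0359 with 16 added). Serpind1, the gene of heparin cofactor II, was at 0.40 with an adjusted p of 0.12. Lower were Vwf, the endothelial carrier of factor VIII, at 16.4, 25.4 and 15.3 against 38.1, 36.9 and 35.5 (-0.99, adjusted p 0.0761), and Fgl1, a fibrinogen-like liver protein, at 1278, 1719 and 1764 against 2573, 2345 and 2306 (-0.62, adjusted p 0.112, 0.0282 with 16 added). The Vwf values all lay below the array medians, and with 16 added its log2 fold change was -0.60 with an adjusted p of 0.0205. Serpina10, Serpind1, Vwf and Fgl1 all separated the lines, and none passed without the constant on all 6 arrays. Of the 28 genes 3 lay above DUC without overlap, beside 15.6% of all genes, and 4 below, beside 16%. F2r also lay below DUC without overlap on both probe sets (-0.55 and -0.56, adjusted p 0.159 and 0.148). The 3 calls with 16 added were each lost when any 1 DUC array was left out, at up to 0.136 for Serpina10, 0.0809 for Vwf and 0.105 for Fgl1. They were also lost without DUhTP 2 or DUhTP 3 for Serpina10, without DUhTP 1 or DUhTP 3 for Vwf, and without DUhTP 1 for Fgl1.

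Of 15 liver transcription factors and signalling genes 4 were positive, with a median of -0.16, and 0 of 26 probe sets passed, beside 2.41% of all. With 16 added 6 passed, all lower, beside 4.7% of all probe sets. These 6 read 4 genes, with 2 probe sets each of Hnf4a and Il6ra and 1 each of Cebpb and Cebpd. Hnf4a, a master factor of hepatocytes, was negative on all 4 probe sets, with 2966, 3093 and 3284 in DUhTP and 3859, 4222 and 4356 in DUC on the brightest (-0.41, adjusted p 0.116, 0.0467 with 16 added). Cebpd, an acute phase factor, measured 95.6, 183 and 139 against 312, 416 and 383, the largest difference of the list (-1.45, adjusted p 0.0552, 0.00342 with 16 added). Its relative Cebpb gave -0.91 with 0.0732 and 0.00953, and the interleukin 6 receptor gene Il6ra -0.79 with 0.131 and 0.037. With 16 added the call of the brightest Cebpd probe set held whichever array was left out, while that of Cebpb was 0.0538 without DUC 3. The call of Il6ra was up to 0.133 without DUhTP 1, DUhTP 3, DUC 2 or DUC 3. That of the brightest Hnf4a probe set was lost whichever array was left out. The dimmer probe sets of Cebpd and Cebpb overlapped between the lines. As percent of the DUC mean, that of Cebpd was at 38.5, 48.1 and 91.8 in DUhTP and 84.7, 114 and 101 in DUC. That of Cebpb was at 49, 85.5 and 26.7 against 85.2, 129 and 86.3. Ppara was at -0.23 (adjusted p 0.346), and Cebpa, Stat3 and Rela overlapped between the lines. Foxa1 (0.43, adjusted p 0.214), Foxa2 (0.39, 0.151) and Irf1 (0.25, 0.268) lay above DUC without overlap and did not pass. These were 3 of the 15 genes, beside 15.6% of all genes. Below DUC without overlap lay 5 of 15, beside 16%, namely Hnf4a, Cebpb, Cebpd, Il6ra and Ppara. How the factors relate to the complement and coagulation genes was not tested.

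Transcripts of another tissue were present in these livers. The 9 exocrine pancreas genes measured all had negative log2 fold changes by their brightest probe sets, with summed levels of 1025 to 4170 in DUhTP and 4742 to 9252 in DUC. Without the constant 0 of their 15 probe sets passed, beside 2.41% of all. With 16 added 8 were lower, beside 4.7% of all probe sets, none of which passed when DUhTP 3, DUC 2 or DUC 3 was left out. None of the 9 genes was at 0, but neither was any probe set on these arrays. Of 8 hepatocyte genes 1 passed, Tat, beside 2.7% of all genes. It measured 3886, 4248 and 3485 in DUhTP and 6952, 7829 and 6549 in DUC (-0.88, adjusted p 0.037). With each array left out the adjusted p was 0.0701 to 0.139, or 0.00302 to 0.0186 with 16 added. The summed hepatocyte level was 82338 to 85572 in DUhTP and 87674 to 91619 in DUC. The part of either in the member differences was not tested.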

How the data were processed

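Liver total RNA of DUhTP and DUC mice was measured on Affymetrix mouse expression arrays, 3 per line. The authors applied global scaling in GCOS 1.1.1 and then PLIER in Array Assist, so the deposited values are PLIER intensities on a linear scale. The PLIER version and any added constant are not given in the sources used here. The 64 control probe sets were left out. Log2 intensities, with no constant and no block, were tested by lmFit and eBayes of limma 3.58.1 (R 4.3.3), and p-values were adjusted over 22626 probe sets by the Benjamini-Hochberg method. Symbols came from the array annotation. All 38 member genes matched RefSeq by gene number and 0 symbols changed. Promoters came from RefSeq, GRCm38.p6. The members and gene lists were chosen with earlier results of these data known. Every measured member was named, and of the other pathway genes every called gene and up to 4 others per list with the highest mean. Further genes named were chosen after their values were seen. They were C1ra, C1s1, Itgb2, Serpina10, Serpind1, Vwf, Fgl1, F2r, Proz, Cebpd, Il6ra, Stat3, Rela, Foxa1, Foxa2 and Irf1. Genes with several probe sets were represented by the brightest. Alternatives were 16 added, quantile normalization, leaving out the dimmest 33.3% of probe sets, limma-trend, array weights, a replicate block, dropping probe sets with names in _s_at or _x_at, and leaving out each array. The procedure was tested on simulated data. The number of arrays limits the precision, and an exact permutation test of 3 against 3 cannot give a p below 0.1.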

Additional observations from a re-analysis of the deposited data

How the results depend on the processing

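Without an added constant 2 complement, 1 coagulation and 2 other pathway probe sets passed, beside 2.41% of all probe sets. With 16 added these counts were 10, 2 and 13, without the dimmest 33.3% of the probe sets 10, 2 and 13, and with limma-trend 11, 2 and 19. Of all probe sets 8.62%, 12.3% and 10.4% passed under these settings. Array weights gave 4 other pathway probe sets, beside 3.05% of all. Without the probe sets that can match several transcripts 1 complement and 0 coagulation probe sets passed, beside 1.93% of all. This setting removes the called Masp1 probe set from the test and leaves F11 at an adjusted p of 0.0558. With the brightest probe set per gene 1 complement and 1 other pathway gene passed, beside 2.7% of all genes. Leaving out each array in turn gave 0 to 0 complement, 0 to 0 coagulation and 0 to 2 other pathway probe sets, beside 0.00442% to 0.539% of all. With 16 added these counts were 2 to 8, 1 to 2 and 3 to 12. In detail, with 16 added and without DUhTP 1, 2 or 3 the complement counts were 6, 7 and 8 and the other pathway counts 9, 12 and 10. Without DUC 1, 2 or 3 they were 4, 2 and 3, and 7, 4 and 3. The shares of all probe sets in these 6 cases were 7.03%, 6.94%, 6.76%, 4.25%, 3.41% and 3.42%. Deviations from the line mean correlated at 0.003, 0.005 and 0.067 between arrays of the same number, and at -0.033 to 0.028 between different numbers. With 3 arrays per line these values cannot decide whether the number marks a pairing. With a replicate block 0 of all 22626 probe sets passed, and so 0 complement, 0 coagulation and 0 other pathway probe sets. In the other cases the counts stayed within 1.5 times. Over the 119 probe sets followed, not all of them named here, no setting reversed a called sign. Without the constant only those of Hc, F11 and Ggcx and 1 each of Masp1 and Cfhr2 were called. The cause of the shifts was not tested. The number of arrays, and the scatter of dim probe sets such as F3, limit what can be called.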

Other observations

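Several members lie next to each other in the RefSeq order of protein-coding genes. C1qb, C1qc and C1qa on chromosome 4 had log2 fold changes of 0.62, 0.49 and 0.72 by their brightest probe sets. C8b and C8a, also on chromosome 4, had 0.21 and 0.11, and Cfb and C2 on chromosome 17 had 0.15 and 0.21. On chromosome 8, F7, F10 and Proz had 0.33, 0.06 and 0.01, and F11 and Klkb1 had 0.79 and -0.08. The differences between neighbours were not tested.

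The DUC arrays lay on different sides of their line mean for many members. Array DUC 1 was above the mean of its line in 18 of 19 complement genes, with a median log2 deviation of 0.10, and in 14 of 19 coagulation genes. Array DUC 3 was below the mean in 15 of 19 complement genes, with a median of -0.09, and in 16 of 19 coagulation genes. Over all probe sets the median deviation of these 2 arrays was 0.00 and -0.01. In DUhTP the number of complement genes above the line mean was 10, 11 and 7 of 19 for the 3 arrays.

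The spread within a line differed between members. The coefficient of variation in DUhTP was 1.49 percent for Hrg, 2.01 percent for Cfi and 2.61 percent for Plg, and 20.3 percent for F5, 18.5 percent for F12 and 18.4 percent for C1qb. For F5 and F12 it was 5.53 and 4.44 percent in DUC, with a lower value in DUhTP 2 for F5 and in DUhTP 3 for F12. Dim F3, at 53.0 percent in DUhTP and 30.7 percent in DUC, had the widest spread of the 38 genes.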
